A study of Homo sapiens with 6 samples.

Results

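The 9 genes described here encode the machinery that displays peptides from inside the cell on MHC class I molecules: the heavy chains HLA-B, HLA-C, HLA-E and HLA-F, the shared light chain B2M, the peptide transporter subunits TAP1 and TAP2, the chaperone TAPBP and the proteasome subunit PSMB9. They were taken by name, on the main chromosomes only, from the 23145 genes kept of the deposited expression table. All 9 were found. The study sequenced RNA from 6 cultures of OVCAR3 and A2780, both human lines from ovarian cancer, to ask which mRNAs go with high expression of COL11A1, a chain of type XI collagen; every culture gave a single library. The COL11A1-low group was made up of A2780 with a scrambled shRNA, A2780 in which an shRNA targets COL11A1 (A2780-shCOL11A1), and OVCAR3 given a GFP gene (OVCAR3-GFP). In the COL11A1-high group were A2780CIS, a derivative of A2780 selected for resistance by long exposure to cisplatin and carrying no named construct, and both lines given the COL11A1 gene (A2780-COL11A1 and OVCAR3-COL11A1). All cultures grew in the same RPMI medium with serum and antibiotics, and the labels name no cytokine. Both low A2780 cultures carry an shRNA and neither high one is labelled with one. Construct type and COL11A1 group (high or low) therefore cannot be told apart in A2780.

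In most cells, proteins are cut by the proteasome, the peptides are pumped into the endoplasmic reticulum by the TAP1 and TAP2 heterodimer, and TAPBP (tapasin) bridges the transporter to an empty heavy chain paired with B2M. A loaded complex moves to the cell surface, where CD8 T cells read the peptide; HLA-E is read mainly by receptors of natural killer cells. Interferon gamma, through the kinases JAK1 and JAK2, induces IRF1 and the transactivator NLRC5, and NLRC5 acts with the RFX complex at promoters of HLA class I genes, B2M and TAP1. In ovarian cancer, as in other carcinomas, loss of class I display is a known route of escape from T cells.

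Motifs for NF-kB and interferon regulatory factors are known inducer sites of class I genes, and 5 upstream regions are shown because they are those of the members in which a kappaB match was found. Each line gives the 200 bases before the RefSeq transcription start (GRCh38.p14), 5′ to 3′ on the gene's own strand, and capitals mark every match on either strand to the kappaB consensus bound by NF-kB, to GAAANNGAAA (the repeat read by interferon regulatory factors), to TGACG (the core of a CREB or ATF site) or to CCAAT (read by NF-Y). The regions are chr6:31357180-31357379, minus strand, for HLA-B, chr6:31272093-31272292, minus strand, for HLA-C, chr15:44711317-44711516, plus strand, for B2M, chr6:32853705-32853904, minus strand, for TAP1, and chr6:33314079-33314278, minus strand, for TAPBP.
HLA-B: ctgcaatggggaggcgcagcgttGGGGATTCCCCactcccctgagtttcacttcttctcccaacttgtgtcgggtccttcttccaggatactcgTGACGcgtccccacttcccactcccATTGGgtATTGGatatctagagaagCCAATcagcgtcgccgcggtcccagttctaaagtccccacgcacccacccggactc
HLA-C: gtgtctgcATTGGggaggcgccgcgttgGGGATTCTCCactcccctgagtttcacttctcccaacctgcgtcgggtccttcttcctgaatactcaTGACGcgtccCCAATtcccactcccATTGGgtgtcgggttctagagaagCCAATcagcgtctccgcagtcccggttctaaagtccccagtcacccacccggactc
B2M: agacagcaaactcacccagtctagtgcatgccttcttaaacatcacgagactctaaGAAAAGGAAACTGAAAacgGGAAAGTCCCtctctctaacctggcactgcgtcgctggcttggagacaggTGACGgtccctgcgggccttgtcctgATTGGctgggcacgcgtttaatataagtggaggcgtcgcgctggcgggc
TAP1: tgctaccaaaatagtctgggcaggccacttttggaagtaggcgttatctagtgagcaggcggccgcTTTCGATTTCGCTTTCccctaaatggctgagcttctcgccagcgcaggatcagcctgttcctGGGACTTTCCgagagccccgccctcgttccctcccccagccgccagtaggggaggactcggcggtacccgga
TAPBP: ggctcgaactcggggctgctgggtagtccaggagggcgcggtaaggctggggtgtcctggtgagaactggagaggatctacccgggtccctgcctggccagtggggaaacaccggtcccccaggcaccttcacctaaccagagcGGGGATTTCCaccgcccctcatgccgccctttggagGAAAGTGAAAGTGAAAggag
HLA-B and HLA-C were alike: counted from the start, kappaB matches spanned -177 to -167 in HLA-B, where they overlap each other on both strands, and -172 to -163 in HLA-C. A TGACG match began at -106 in HLA-B and at -105 in HLA-C, and both held CCAAT at -56 to -52. B2M had a pair of overlapping GAAANNGAAA matches at -144 to -129, TAP1 at -134 to -119 and TAPBP at -20 to -5. In B2M a kappaB match followed that pair, at -125 to -116. TAP1 has more than 1 start in the table, and the first listed is shown. Of the 8 members with an entry in the RefSeq table, 5 held a kappaB match (HLA-B, HLA-C, B2M, TAP1 and TAPBP), against 4.21% of all 35116 promoter windows of the same length. GAAANNGAAA was found in 5 members (HLA-F, B2M, TAP1, TAP2 and TAPBP), against 2.40% of windows. TGACG was found in 5 members and in 18.4% of windows, and CCAAT in 4 members and in 28.0% of windows. PSMB9 held TGACG alone. These are letter matches, not measured binding, and HLA-E had no entry.

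COL11A1 was at 4.23 FPKM (fragments per kilobase of transcript, scaled to the size of the library) in A2780 scrambled shRNA, 0.670 in A2780-shCOL11A1, 297 in A2780CIS and 8.17 in A2780-COL11A1. It was at 0.0258 in OVCAR3-GFP and 1.67 in OVCAR3-COL11A1. Each high library thus lay above the control of its line, while A2780 scrambled shRNA, a low library, lay above OVCAR3-COL11A1. A2780CIS stood apart from the other A2780 libraries, with a Pearson's r of 0.859 to 0.870 across genes on log2(FPKM + 1), against 0.968 to 0.991 among the other 3; genes are not independent replicates. Relative depth, estimated from the steps of the lowest values, ran from 0.501 in OVCAR3-COL11A1 to 1.58 in A2780-COL11A1, with A2780 scrambled shRNA at 1 and A2780CIS at 0.746. The estimate rests on 34 genes for OVCAR3-COL11A1 and 257 for A2780-COL11A1, and absolute depth is unknown. Epithelial and ovarian lineage markers were present in OVCAR3, where 0 of 10 were under 1 FPKM. In A2780, 4 of the 5 ovarian lineage markers (PAX8, WT1, MUC16 and MSLN) were under 1 FPKM in every library. FOLR1, the other one, was at 4.22, 6.999 and 2.56 FPKM in A2780 scrambled shRNA, A2780-shCOL11A1 and A2780-COL11A1 and at 0.001 in A2780CIS, a range that overlaps OVCAR3, at 6.20 and 1.47. Leukocyte markers, which would point to other cells rich in class I, summed to between 0.360 and 1.03 FPKM over 8 genes in A2780 and to 3.80 and 4.08 in OVCAR3, where CD14 and LYZ were the markers above 1 FPKM; PTPRC was at 0.115 FPKM or less in all 6 libraries. In bulk RNA, fewer cells with a transcript and less of it per cell cannot be told apart.

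The members were high in the A2780 scrambled shRNA, A2780-shCOL11A1 and A2780-COL11A1 libraries and low in A2780CIS and in both OVCAR3 libraries. Summed over the 9 genes, the level was 2853, 2456 and 3130 FPKM in those A2780 libraries, 487 in A2780CIS, 622 in OVCAR3-GFP and 591 in OVCAR3-COL11A1. This order does not follow the COL11A1 groups, since each group holds libraries from both ends. Over the 36 pairs of members, Pearson's r of log2(FPKM + 1) across the 6 libraries ran from 0.735 to 0.993, with a median of 0.922. The points share their libraries and line, so these are descriptions.

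**Figure D1:**
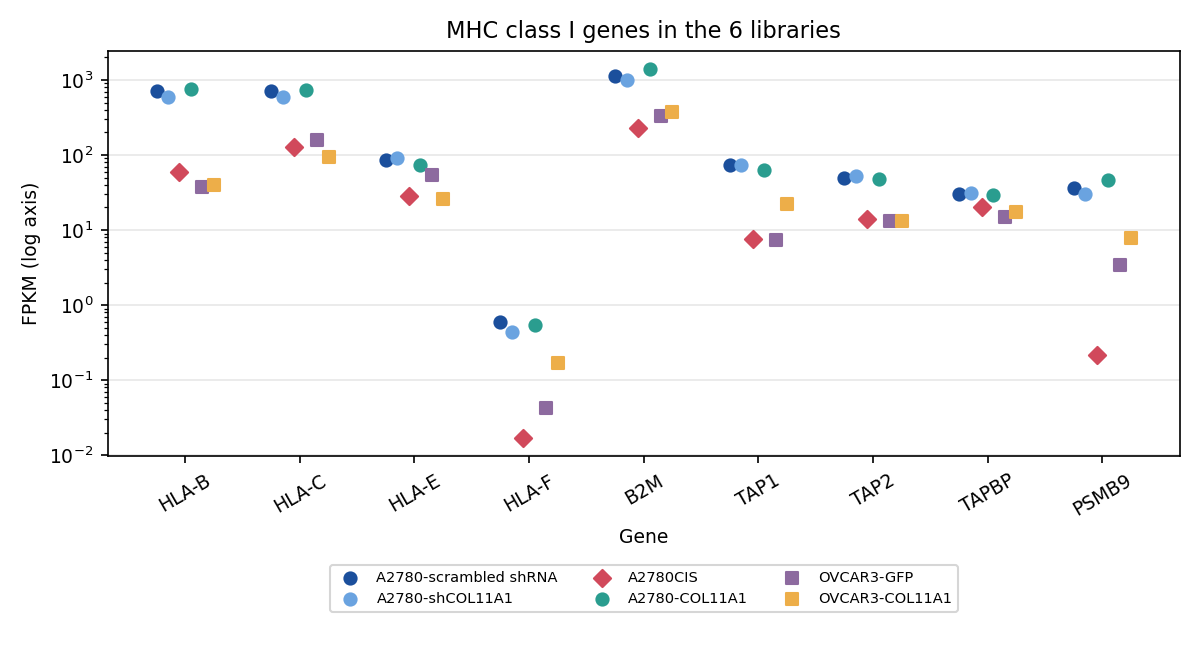
FPKM (log axis) of the 9 MHC class I genes, with 1 point per library; circles are A2780 scrambled shRNA, A2780-shCOL11A1 and A2780-COL11A1, the diamond is A2780CIS and squares are OVCAR3. The circles lie above the diamond and both squares for all 9 genes; HLA-B is at 717, 585 and 749 FPKM in the circles, 59.5 in A2780CIS and 37.4 and 39.4 in OVCAR3.

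Comparing A2780CIS with the other A2780 cultures asks how the drug-selected derivative differs from its relatives. The class I genes were lower in it throughout. PSMB9, HLA-B, TAP1, HLA-C, B2M, TAP2 and HLA-E fell, and A2780CIS was the lowest A2780 library for 9 of 9 members, which also held for 41.0% of the 12083 genes tested. By limma with Benjamini-Hochberg adjustment, 7 of the 8 members tested passed the 5% threshold, all lower, where 9.85% of all genes tested passed as lower, 9.15% as higher and 19.0% in either direction. Unadjusted, 8 of 8 members were under 0.05, as were 37.1% of genes. The median difference over the tested members was -2.37 in log2(FPKM + 1), against -0.07 over all genes tested. HLA-F, with a mean under 1 FPKM, was not tested. A2780CIS is 1 library, so the test takes its spread to be that of the other 3, which are different constructs. Marker lists also differed in this library, without a shared direction. The 5 epithelial markers summed to 46.7 FPKM against 5.43 to 7.78, nearly all of it KRT18 (44.8 against 3.24 to 5.11), while the other 4 were under 1 FPKM in A2780CIS and KRT19 and CDH1 were lowest there. The 5 ovarian lineage markers summed to 0.148 FPKM against 2.61 to 7.16, with FOLR1 lower (-2.40, adjusted p = 0.0300, limma). The 4 fibroblast markers summed to 2.55 FPKM against 6.01 to 9.001, although DCN was highest in A2780CIS, at 1.33 against 0.363 to 1.03. Their part in the result was not tested.

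Among the heavy chains, HLA-B (chromosome 6, 31321648 to 31324989, GRCh37 as in the table, like the positions that follow) was at 717, 585 and 749 FPKM in A2780 scrambled shRNA, A2780-shCOL11A1 and A2780-COL11A1, and at 59.5 in A2780CIS. The 3 values did not overlap with the derivative, at 684 ± 86.7 FPKM (SD, n = 3), 11.5 times its level. The difference was -3.49 ± 0.20 (SE, adjusted p = 0.00112, limma). HLA-C (chromosome 6, 31236525 to 31239913), which also serves as a ligand for killer cell receptors, was at 712, 595 and 727 FPKM against 126. Its 3 values did not overlap with A2780CIS, at 678 ± 72.3 FPKM (SD, n = 3), 5.36 times its level, and the difference was -2.41 ± 0.18 (SE, adjusted p = 0.00251, limma). HLA-E (chromosome 6, 30457182 to 30461982) was at 87.1, 90.5 and 73.5 FPKM against 28.7. It fell less than HLA-B and HLA-C, by 1.51 ± 0.19 on the log2 scale (SE, adjusted p = 0.0104, limma); whether members differ in their change was not tested. This call was lost without A2780 scrambled shRNA (adjusted p = 0.0557, limma) and with the OVCAR3 libraries in the fit (0.0588). HLA-F (chromosome 6, 29691116 to 29695073) was at 0.596, 0.444 and 0.540 FPKM against 0.0169. All 6 values were under 1 FPKM, its locus overlaps HLA-F-AS1, and such levels rest on few fragments.

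B2M (chromosome 15, 45003684 to 45010357) was the most abundant member, at 1145, 997 and 1393 FPKM in the other A2780 libraries and 230 in A2780CIS. The difference was -2.34 ± 0.23 (SE, adjusted p = 0.0049, limma), close to that of HLA-C although B2M lies on another chromosome. The ratio of B2M to the sum of HLA-B, HLA-C and HLA-E was 0.755, 0.785 and 0.900 in those libraries, 1.07 in A2780CIS, 1.32 in OVCAR3-GFP and 2.36 in OVCAR3-COL11A1. The heavy chain transcripts were thus in excess of B2M in the class I-high libraries and below it in the class I-low ones, on the FPKM scale.

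Of the peptide-loading genes, TAP1 (chromosome 6, 32812985 to 32821748) was at 74.6, 72.6 and 64.1 FPKM against 7.58 in A2780CIS. It was 9.29 times lower there by the mean of the 3, with a difference of -3.05 ± 0.18 (SE, adjusted p = 0.00121, limma); its locus overlaps LOC100507463. TAP2 (chromosome 6, 32789609 to 32806547) was at 49.6, 52.8 and 48.0 FPKM against 14.2 (-1.75 ± 0.17, SE, adjusted p = 0.0047, limma). The transporter needs both subunits, and their ratio, TAP1 over TAP2, was 1.34 to 1.51 in the other A2780 libraries and 0.534 in A2780CIS. In OVCAR3-GFP the ratio was 0.552, while in OVCAR3-COL11A1, a class I-low library, it was 1.68, above every other library. TAPBP (chromosome 6, 33267471 to 33282164) was at 30.4, 31.4 and 29.7 FPKM against 20.0. Its 3 values lay close together and above A2780CIS, but the difference of -0.58 ± 0.16 (SE) did not pass (adjusted p = 0.0709, limma). It passed when A2780-COL11A1 was left out (0.0123).

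PSMB9 (chromosome 6, 32821937 to 32827628), the immunoproteasome subunit that replaces PSMB6, was at 36.7, 30.6 and 45.9 FPKM and at 0.217 in A2780CIS. This was the widest gap of the 9 on the log2(FPKM + 1) scale, -4.97 ± 0.27 (SE, adjusted p = 0.00107, limma). The mean of the 3 was 174 times the A2780CIS value, a ratio that rests on a value near 0. PSMB9 and TAP1 lie head to head with 188 bases between their loci. PSMB6 was at 80.0, 73.7 and 101 FPKM in the other A2780 libraries and 117 in A2780CIS, so that PSMB9 over PSMB6 went from 0.415 to 0.459 down to 0.00185.

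Between the lines, OVCAR3 had less of the class I genes than A2780 when A2780CIS was set aside. Both OVCAR3 libraries lay below each of the other 3 A2780 libraries for 9 of 9 members, a pattern shared by 41.3% of the 12841 genes tested. In the full fit of OVCAR3 against all 4 A2780 libraries, 1 of 8 tested members passed as lower, HLA-B (-3.24 ± 1.00, SE, adjusted p = 0.0430, limma), where 25.6% of all genes passed as lower, 19.6% as higher and 45.2% in either direction. This call rests on each library: without any 1 of the libraries other than A2780CIS its adjusted p was 0.0658 to 0.340 (limma). Unadjusted, 4 of 8 members were under 0.05, where 54.9% of genes were. The median difference over members was -1.39, against -0.15 over all genes. Scaling all libraries to 1 median moved the all-gene value to 0.02 and that of the members to -1.21, and HLA-B then missed the threshold (adjusted p = 0.0525, limma). Without A2780CIS, 8 of 8 tested members passed as lower in OVCAR3, with a median of -2.13, where 33.3% of all genes did and 58.2% passed in either direction. A2780CIS was the lowest A2780 library for 9 of 9 members. Leaving it out thus widened the difference and narrowed the SE, so these calls follow in part from that choice.

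HLA-B was at 37.4 FPKM in OVCAR3-GFP and 39.4 in OVCAR3-COL11A1, both below every A2780 library; without A2780CIS the difference from A2780 was -4.14 ± 0.18 (SE, adjusted p = 0.00019, limma). HLA-C was at 161 and 92.9 FPKM, on either side of A2780CIS. HLA-B and HLA-C were about equal in the class I-high libraries, with a ratio of 0.983 to 1.03, while HLA-B was 0.470 of HLA-C in A2780CIS, 0.233 in OVCAR3-GFP and 0.424 in OVCAR3-COL11A1. How reads that match several HLA genes or an unlisted allele were counted is not given in the sources used here, so the split among HLA genes is uncertain. B2M was at 331 and 373 FPKM in OVCAR3 and TAP2 at 13.3 and 13.2, both with OVCAR3 values close together. TAPBP was at 14.8 and 17.5 FPKM, below all 4 A2780 libraries. PSMB9 was at 3.47 and 7.74 FPKM, between A2780CIS and the rest of A2780.

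**Figure D2:**
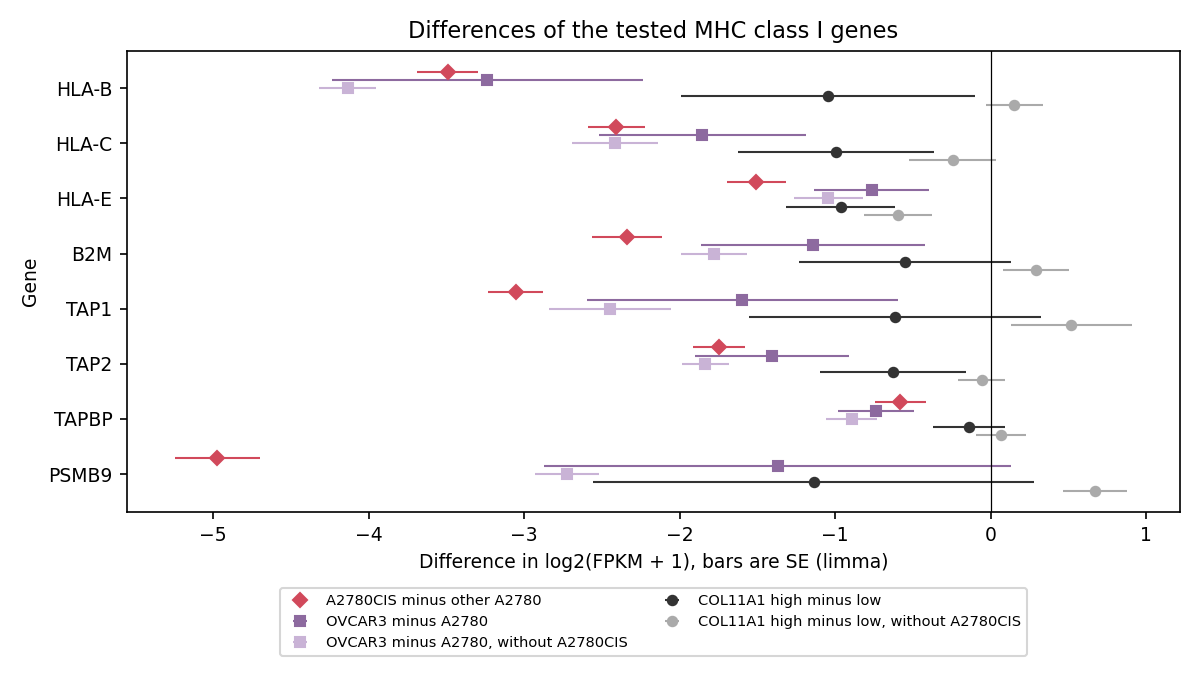
Differences in log2(FPKM + 1) with SE (limma) for the 8 tested members in 3 comparisons, with the line and group comparisons also shown without A2780CIS. Diamonds (A2780CIS against other A2780) and pale squares (OVCAR3 against A2780 without A2780CIS) lie below 0 for every gene, while grey circles (COL11A1 high against low without A2780CIS) lie on both sides of 0, from -0.59 for HLA-E to 0.67 for PSMB9.

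Setting the COL11A1-high libraries against the COL11A1-low ones, with cell line as a term, asks whether class I expression goes with COL11A1 over both lines. No member passed: by limma, 0 of 8 tested members and 0% of the 12841 genes were past the threshold, with 1 member and 6.48% of genes at an unadjusted p under 0.05. The differences were below 0 for 8 of 8 members, from -1.14 ± 1.42 (SE) for PSMB9 to -0.14 ± 0.23 for TAPBP, with a median of -0.80 against -0.01 over all genes. Without A2780CIS the median was 0.11, with 5 of 8 members above 0, and with the overexpression libraries and their controls alone it was 0.083. HLA-E was the member at an unadjusted p under 0.05 (-0.96 ± 0.35, SE, adjusted p = 0.731, limma). HLA-E and TAP2 had every high library below every low library of the same line, 2 of 9 members, against 12.3% of genes tested.

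The single-library pairs show where construct and class I level moved apart; no difference was tested, and the 3 A2780 pairs share A2780 scrambled shRNA as control. A2780-shCOL11A1 had 0 of 9 members at a 2-fold change or more on the log2(FPKM + 1) scale, where 0.179% of genes were higher and 0.195% lower by that much. Its median log2 difference was -0.14, with HLA-B at 585 FPKM against 717 the largest. A2780-COL11A1 also had 0 of 9 (0.849% of genes higher, 1.91% lower), a median of -0.03 and a range from -0.24 for HLA-E to 0.31 for PSMB9. COL11A1 was at 0.670 FPKM in A2780-shCOL11A1 and 8.17 in A2780-COL11A1, against 4.23 in the control and 297 in A2780CIS. Whether COL11A1 sets the class I level was not tested. A2780CIS had 7 of 9 members at least 2-fold lower, against 10.0% of genes, and 0 of 9 at least 2-fold higher, against 8.43%.

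OVCAR3-COL11A1 against OVCAR3-GFP split the members. TAP1 was at 22.1 FPKM against 7.34, a ratio of 3.01, and PSMB9, its neighbour, at 7.74 against 3.47, a ratio of 2.23. HLA-E went the other way, at 25.8 FPKM against 53.5, a ratio of 0.482, and HLA-C was at 92.9 against 161. HLA-B, TAP2, B2M and TAPBP lay within 0.23 of 0 in log2 difference. On the log2(FPKM + 1) scale, 1 of 9 members was at least 2-fold higher (6.79% of genes) and 1 of 9 at least 2-fold lower (4.18% of genes). OVCAR3-COL11A1 was the shallowest library by the estimate of relative depth, which rests on 34 genes for it. The part of depth in these ratios was not tested. For TAP1 the OVCAR3 difference minus the A2780 difference was 3.13 ± 1.95 (SE, adjusted p = 0.556, limma). The A2780 difference in that fit counts A2780CIS as a high library, with TAP1 at 7.58 FPKM. By single pairs, the log2 difference of TAP1 was 1.47 in OVCAR3 and -0.22 for A2780-COL11A1 over A2780 scrambled shRNA. The interaction passed for 0 of 8 members and 0% of genes, with 0 members and 13.6% of genes at an unadjusted p under 0.05.

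The rest of the class I pathway moved in part. Of 13 listed genes, all tested in A2780CIS against the other A2780 libraries, 4 fell, 0 rose and 9 did not pass, with a median of -0.52. Over all genes tested, 9.85% passed as lower and 9.15% as higher. TAPBPL, a second peptide editor related to tapasin, was at 11.2, 11.2 and 9.09 FPKM against 2.27 (-1.81 ± 0.22, SE, adjusted p = 0.00878, limma). ERAP1 and ERAP2, the aminopeptidases that trim peptides in the endoplasmic reticulum, fell by 1.497 and 1.63 on the log2 scale; ERAP1 was at 35.7, 39.2 and 43.4 FPKM against 13.3. CALR, the chaperone calreticulin, was at 667, 618 and 596 FPKM against 316, and its call was lost without A2780 scrambled shRNA (adjusted p = 0.125, limma) or A2780-shCOL11A1 (0.0522) and with the OVCAR3 libraries in the fit (0.213). PSMB10, another immunoproteasome subunit, was at 33.5, 30.7 and 46.5 FPKM against 20.1 and did not pass (adjusted p = 0.102, limma). PSMB8, the third immunoproteasome subunit, differed from PSMB9 in its pattern: it was at 1.504 to 3.36 FPKM in A2780 and at 16.3 and 17.0 in OVCAR3, a line difference of 2.43 (adjusted p = 0.00135, limma). The constitutive catalytic subunits PSMB5, PSMB6 and PSMB7 passed in 0 of 3 cases (limma; 1 at an unadjusted p under 0.05), with differences of -0.59, 0.47 and -0.18; PSMB7 turned to 0.14 without A2780-COL11A1.

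**Figure D3:**
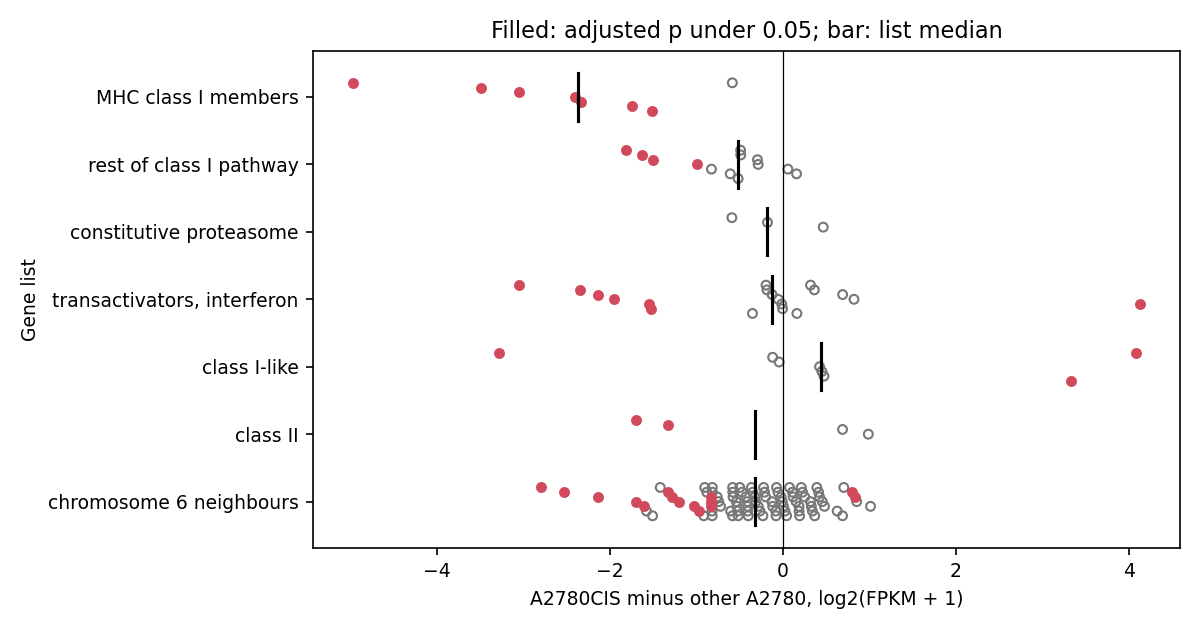
Difference between A2780CIS and the other A2780 libraries in log2(FPKM + 1), with 1 point per tested gene and a row per gene list; filled points passed the adjusted threshold and bars are list medians. The members' median is -2.37, against -0.52 for the rest of the class I pathway and -0.32 for chromosome 6 neighbours.

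Among the regulators of class I genes, 6 of 19 fell in A2780CIS, 1 rose and 12 did not pass, with a list median of -0.12. The shares over all genes tested were 9.85% lower and 9.15% higher. NLRC5, the class I transactivator, was at 18.7, 17.5 and 15.8 FPKM in the other A2780 libraries, 1.21 in A2780CIS, 0.193 in OVCAR3-GFP and 0.188 in OVCAR3-COL11A1. Over the 6 libraries its Pearson's r on log2(FPKM + 1) with the members ran from 0.813 for PSMB9 to 0.996 for HLA-B. These libraries fall into a high and a low set, so such values of r are a description. The NLRC5 difference in A2780CIS was -3.05 ± 0.20 (SE, adjusted p = 0.00173, limma). RFXAP, a subunit of the RFX complex, was at 10.4, 10.95 and 8.55 FPKM against 1.15 (-2.34 ± 0.22, SE, adjusted p = 0.0047, limma) and at 1.14 and 2.24 in OVCAR3. RFX5, its DNA-binding partner, was at 34.6, 38.5 and 35.9 FPKM against 45.6 in A2780CIS (0.32 ± 0.17, SE, adjusted p = 0.231, limma), but at 5.53 and 3.32 in OVCAR3.

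IRF1, an interferon-induced activator of PSMB9 and TAP1, was at 27.0, 33.0 and 39.8 FPKM against 6.72 in A2780CIS (-2.13 ± 0.26, SE, adjusted p = 0.00927, limma) and at 7.13 and 12.8 in OVCAR3. STAT2 and IRF9, parts of the complex that carries the type I interferon signal, fell by 1.55 and 1.52 on the log2 scale. JAK1, the kinase bound to the interferon receptors, ran opposite to NLRC5: it was at 1.02, 1.81 and 2.503 FPKM in the class I-high A2780 libraries, 46.6 in A2780CIS and 101 and 62.3 in OVCAR3. Its Pearson's r with NLRC5 was -0.993 over the 6 libraries, which fall into a high and a low set, and it rose in A2780CIS by 4.14 ± 0.35 (SE, adjusted p = 0.00341, limma). Whether any of these genes sets the class I level was not tested.

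**Figure D4:**
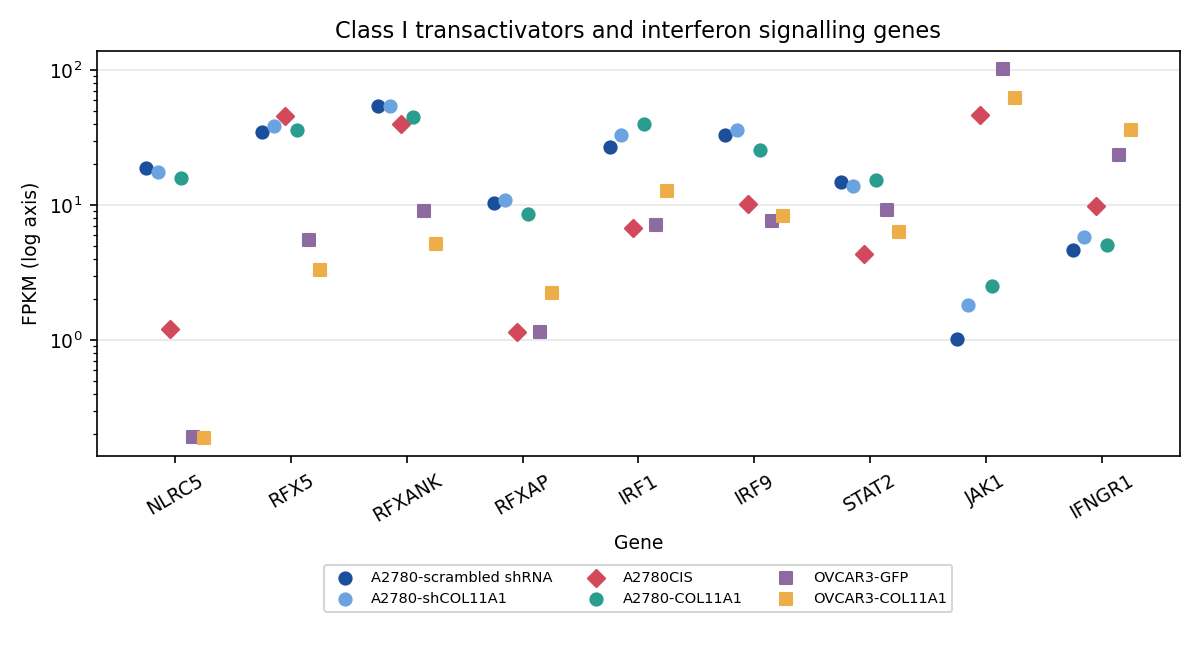
FPKM (log axis) of 9 picked from the 19 listed regulators of class I genes, with 1 point per library and the same symbols as in the plot of the members. The 9 do not stand for the list, of which 12 genes did not pass in A2780CIS against the other A2780 libraries. NLRC5, RFXAP, IRF1, IRF9 and STAT2 have their circles above the diamond and the squares, while JAK1 has them below, at 1.02 to 2.503 FPKM against 46.6 to 101.

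Class I-like genes did not share the members' pattern as a list: 1 of 8 tested in A2780CIS fell, 2 rose and 5 did not pass. For comparison, 9.85% of all genes tested passed as lower and 9.15% as higher. FCGRT, the B2M-bound Fc receptor, was at 16.3, 14.96 and 9.11 FPKM against 0.449 in A2780CIS but at 16.6 and 11.7 in OVCAR3. ULBP1, a ligand of the natural killer receptor NKG2D, was at 0.118 to 0.175 FPKM against 10.7 in A2780CIS and at 5.70 and 12.3 in OVCAR3, the opposite order to the members. PROCR, the protein C receptor, was at 1.56 to 1.59 FPKM against 42.5 and under 1 FPKM in OVCAR3. HFE (difference 0.48) and ULBP3 (0.45) did not pass. Of 10 class II genes 4 were tested, and HLA-DPA1 (-1.69 ± 0.26, SE, adjusted p = 0.0167, limma) and HLA-DMB (-1.32 ± 0.21, SE, adjusted p = 0.0191, limma) fell, to 0.310 FPKM from 2.60 to 4.11 and to 0.230 from 1.70 to 2.35; both calls ended without A2780 scrambled shRNA, at an adjusted p of 0.0557 and 0.0837, and that of HLA-DMB also without A2780-shCOL11A1, at 0.0568. HLA-DMA (0.69) and CD74 (0.99), the invariant chain, did not pass.

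The 8 members on chromosome 6 lie between positions 29691116 and 33282164 (GRCh37), among 166 other genes of the table. Of these neighbours 89 were tested in A2780CIS against the other A2780 libraries: 13 fell, 2 rose and 74 did not pass. Across all genes tested, 9.85% passed as lower and 9.15% as higher. The neighbours' median was -0.32, against -2.37 for the members and -0.07 for all genes. Among the neighbours with the largest differences were HLA-H, a class I pseudogene (-2.53), NEU1, a lysosomal sialidase (-2.14), HLA-DPA1 (-1.69) and HLA-G, a class I heavy chain (-1.61). HLA-G was at 5.07, 4.75 and 4.76 FPKM against 0.921 in A2780CIS, and at 2.10 and 1.26 in OVCAR3. In OVCAR3 against A2780, 46 of 88 tested neighbours passed as lower and 6 as higher, where 25.6% and 19.6% of all genes did. The neighbours' median of -0.94 lay below the all-gene median of -0.15. Single neighbours went the other way: 16 of the 88 were above 0, up to 4.86 for HSPA1A.

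**Figure D5:**
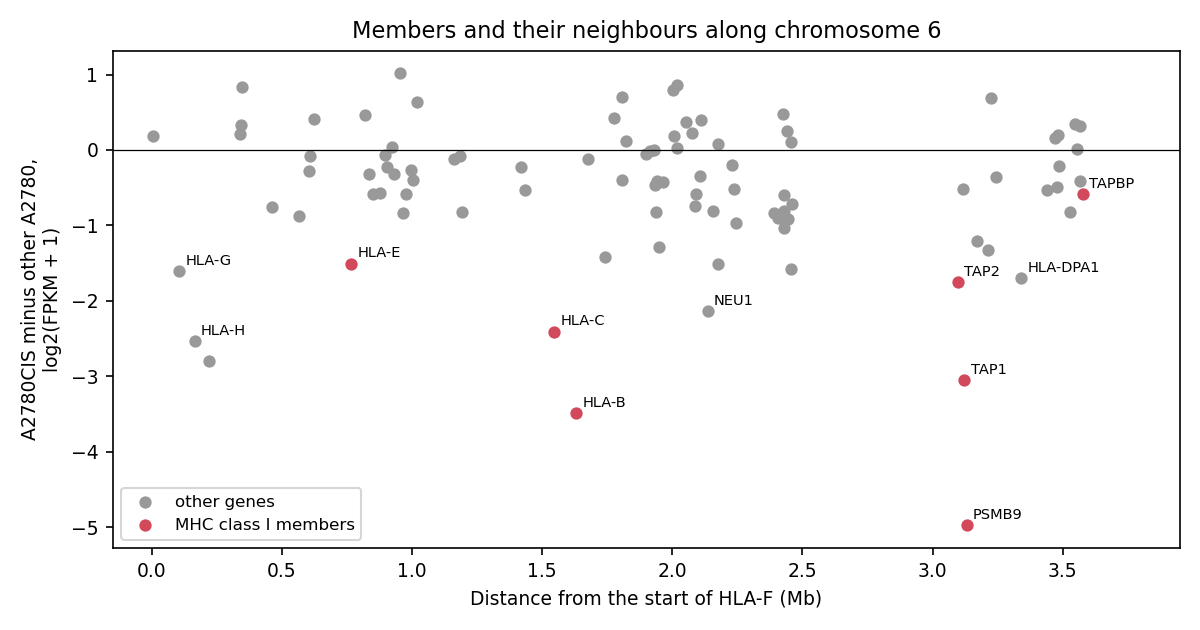
Difference between A2780CIS and the other A2780 libraries in log2(FPKM + 1) against the distance from the start of HLA-F in Mb, for the 7 tested members on chromosome 6 (red) and 89 neighbours (grey). The neighbours centre at -0.32, while HLA-B, TAP1 and PSMB9 lie at -3.05 or lower.

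The genes whose pattern was most like the members' were sought among 4129 genes outside the lists that ranged over at least 2 in log2(FPKM + 1), by Pearson's r with the members' mean standardized level over the 6 libraries. The closest was BTN3A3, a butyrophilin gene on chromosome 6, with r = 0.999 and 8.64, 7.65 and 8.74 FPKM in the class I-high A2780 libraries against 0.990 in A2780CIS and 1.29 and 1.24 in OVCAR3. The next were CNTNAP2, CNNM1, ANO3, PIM1, FLNC, HOXD9, SFTA3, ARHGAP28 and MAB21L1, with r of 0.996 or more. MAB21L1 and HOXD9 were listed at 0.001 FPKM, which no entry falls below, in A2780CIS and OVCAR3-GFP, while MAB21L1 was at 78.0 to 123 FPKM in the other A2780 libraries. With 6 libraries in a high and a low set, such values of r are given as a description.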

How the data were processed

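RNA was measured in 6 cultures, with 1 library each. Per the labels' protocols, the libraries are stranded, from poly-A mRNA, and were read from a single end over 75 bases. The deposited values are FPKM per the file headers; their unit was recorded as other because a few entries give a word where a value should be, and those were dropped. The submitters' processing notes name STAR 2.5.0, RSEM 1.2.25 and GRCh38, whereas the table's loci are those of GRCh37, so which program gave the values, and how it treated strand and reads that match several genes, is not given in the sources used here. Alternate haplotype entries (48 for 8 members, all at 0.001 FPKM) were left out.

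From these values log2(FPKM + 1) was computed, and a gene entered a fit if its libraries averaged 1 FPKM or more. Tests were made with limma 3.58.1 in R 4.3.3, two-sided, with an intensity trend and a 5% Benjamini-Hochberg threshold. Group and cell line were terms in 1 fit; a further fit added their interaction, and A2780CIS was set against the other A2780 libraries alone. The fits were tested on simulated data. Libraries of a group are different cultures, with constructs or drug-selected (A2780CIS), so p-values measure the spread between such cultures. In the group and line fits that spread includes the gap of A2780CIS from the other A2780 libraries. For HLA-B the SE of the group difference was 0.94, and 0.18 without A2780CIS. Fold changes on this scale understate those of low genes. At the average depth the labels give, 1 read on a transcript of 1 kb is worth 0.05 FPKM.

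Named genes were the 9 members, up to 5 tested genes per list by the size of the A2780CIS difference, NLRC5, IRF1 and RFX5, and the 10 most alike in pattern; other genes were named after their values were seen. Some genes the rule takes in are not reported here. The members and lists were chosen with earlier results of these data known. Alternatives were the pseudocount, the filter, scaling, the variance trend, the line term, the control and leaving out each library. Promoter sequences are RefSeq's.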

Additional observations from a re-analysis of the deposited data

Results flagged for a closer look

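A2780CIS lay far from the other A2780 libraries for 6 of 9 members. The distance to the nearest of the other 3, as a share of the whole range of log2(FPKM + 1) over the 4 A2780 libraries, was 0.931 for TAP1, 0.925 for TAP2, 0.902 for HLA-B, 0.891 for PSMB9, 0.885 for HLA-C and 0.878 for TAPBP, all above Dixon's 95% critical value of 0.829. Of the 12083 genes tested among these libraries, 12.8% passed that value in either direction with any library apart, and 5.06% passed it with A2780CIS as the lowest. HLA-F is not among those genes. The 4 are different cultures and not repeats of 1 group, and chance flags about 1 in 20 groups.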

How the results depend on the processing

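Against the other A2780 libraries, A2780CIS was lower for every tested member in all alternatives run; members past the threshold numbered 6 to 8 with 1 library left out, and 6 with no filter or with the OVCAR3 libraries in the fit. Genes past it numbered 2296, 1521 at a mean of at least 5 FPKM, 1428 with OVCAR3 in the fit and 846 to 6091 with 1 library left out (the lowest without A2780 scrambled shRNA, 1163 without the COL11A1 shRNA library and the highest without A2780-COL11A1). With no filter, B2M (adjusted p = 0.0578, limma), HLA-E (0.0507), IRF1, FCGRT, CALR, HLA-DPA1 and HLA-DMB missed the threshold and TAPBP passed (0.0402). ERAP2 missed it with OVCAR3 in the fit (0.0592). PSMB7 ranged from -0.43 to 0.14 with 1 library left out. The A2780CIS median against A2780-shCOL11A1 in place of the scrambled control was -2.11.

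OVCAR3 against A2780 gave 1 member past the threshold, 0 with no filter or median scaling, 2 with quantile normalization and 0 to 8 with 1 library left out; genes then numbered 2858 to 7430, against 5810. PSMB9 ranged from -2.95 to 0.21 there and was above 0 without OVCAR3-GFP.

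For COL11A1 high against low, leaving out libraries gave 0 genes throughout and medians from -1.27 to 0.11. With 1 library left out HLA-B ranged from -1.93 to 0.15, B2M from -1.19 to 0.29, TAP1 from -1.66 to 0.52, TAPBP from -0.33 to 0.068 and PSMB9 from -2.34 to 0.67, each above 0 without A2780CIS. With overexpression libraries and their controls alone they were at 0.067, 0.23, 0.63, 0.099 and 0.64, with a median of 0.083. The cause of these changes was not tested. No paired analysis was possible because the labels give no replicate numbers; what they share across groups is the cell line, which was a term in the fit.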
